A study of Mus musculus with 6 samples.

Results

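The mitochondrial ribosome is built from proteins that are encoded in the nucleus, made in the cytosol and imported, and this account follows the genes of those proteins in proprioceptive sensory neurons with and without Dicer. Members were the rows of the expression table whose name begins with Mrpl or Mrps followed by a number, with the row of highest mean kept for each name. This gave 76 genes out of 31032 distinct names, 47 of them named for the large subunit (Mrpl) and 29 for the small subunit (Mrps). Within this family membership followed from the name alone.

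The Dicer knockout group had 3 libraries from mice in which Dicer, the ribonuclease that releases mature microRNAs, was deleted by a parvalbumin-driven Cre recombinase. The wild-type group had 3 libraries. All 6 were made from parvalbumin-positive neurons of the lumbar 4 dorsal root ganglion of C57BL/6 mice at postnatal day 21, with RNA prepared by the PicoPure kit and cDNA amplified by an Ovation kit. By design the deletion is directed to cells that have expressed parvalbumin, so RNA of other cells in a knockout library would come from cells with Dicer intact. Whether Dicer was deleted in any other cells was not measured here. The labels name no floxed allele and do not say whether the wild-type mice carried Cre. They also do not say how many animals gave each library, so the p-values below reflect library-to-library spread, which may be partly technical.

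The mitochondrial ribosome translates the few messages of mitochondrial DNA, all of which encode core subunits of the respiratory chain and the ATP synthase. Its small subunit holds the decoding site for the message and its large subunit forms the peptide bond at the inner membrane. Some of its proteins have counterparts in the bacterial ribosome and others were added in the mitochondrial lineage. Large sensory neurons with long axons depend on mitochondrial ATP, and defects of mitochondrial ribosomal proteins in humans cause respiratory chain disease.

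Levels are given in TPM, a relative abundance that is corrected for transcript length and sums to the same total in every library. Of the 76 genes, 76 had a mean of at least 1 TPM and entered the test, so no member was lost to the filter on low values. The libraries held 13237 to 13960 rows at 1 TPM or more, and the depth of sequencing is unknown because TPM keeps no counts. Dicer1 was at 24.0, 20.8 and 21.8 TPM in knockout libraries, against 36.7, 25.99 and 48.7 TPM in wild-type libraries (limma adjusted p = 0.104). This value covers the whole gene and does not show how complete the deletion was. Pvalb, the gene whose promoter drives Cre, fell to 4.02, 3.69 and 14.0 TPM in knockout libraries, against 25.1, 19.7 and 23.1 TPM in wild-type libraries (limma adjusted p = 0.0452). All 6 proprioceptor and all 6 pan-neuronal markers on the lists were detected. The proprioceptor markers summed to 797 to 981 TPM in knockout libraries, against 1510 to 1650 TPM in wild-type libraries. All 6 lay wholly below wild type, and 4 were called lower (Pvalb, Runx3, Etv1 and Spp1, 66.7%, against 3.17% of all tested rows). Of the 6 pan-neuronal markers, Rbfox3 was called higher (limma adjusted p = 0.0496, 16.7%, against 1.86%) and 0 lower. The part of these marker differences in the members' levels was not tested. Replicate 3 of each group carried the Y-linked Ddx3y transcript (32.7 TPM in knockout, 33.3 TPM in wild type), which was at 0.02 TPM or less in the other 4 libraries. The female transcript Xist was at 0 TPM in knockout replicate 3, 0.06 TPM in wild-type replicate 3 and 22.2 to 69.5 TPM in the other 4. Sex thus differed within each group, and its part in the results was not tested.

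Transcripts of this gene family spanned a wide range of levels, although the products of all members but Mrps36 enter the same particle. The mean over the 6 libraries ran from 13.1 TPM for Mrps25 to 338 TPM for Mrps36, with a median of 55.8 TPM. There were 15 genes above 100 TPM on average, 53 between 20 and 100 TPM and 8 below 20 TPM. The highest large-subunit genes were Mrpl42 (309 TPM), Mrpl30 (222 TPM), Mrpl21 (206 TPM), Mrpl52 (181 TPM) and Mrpl18 (165 TPM). The lowest were Mrpl1 (19.5 TPM), Mrpl45 (19.5 TPM), Mrpl15 (18.8 TPM), Mrpl38 (18.0 TPM) and Mrpl19 (14.9 TPM). Among small-subunit names the highest were Mrps36 (338 TPM), Mrps21 (296 TPM), Mrps33 (209 TPM), Mrps18a (138 TPM) and Mrps6 (108 TPM), and the lowest were Mrps5 (26.7 TPM), Mrps27 (22.8 TPM), Mrps35 (18.6 TPM), Mrps34 (17.6 TPM) and Mrps25 (13.1 TPM). Levels varied less between libraries than between genes: the coefficient of variation over the 6 libraries, genotype included, was 7.56% for Mrps22 at the lowest, 16.8% at the median and 36.7% for Mrps5 at the highest.

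**Figure D1:**
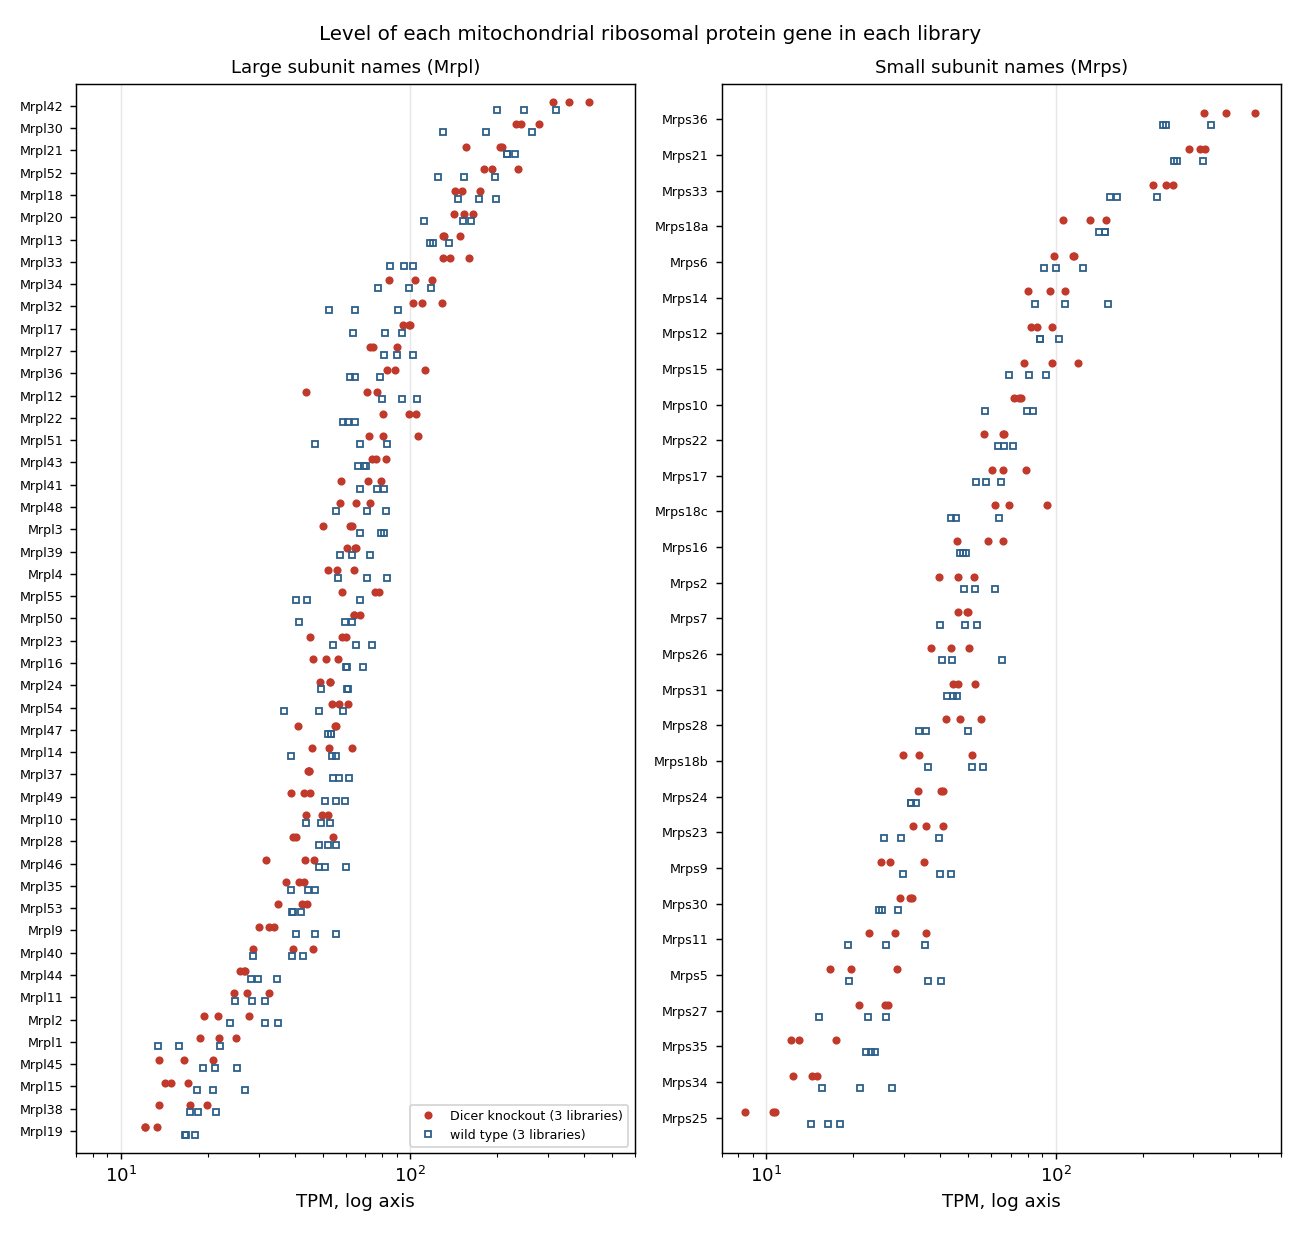
Level of each of the 76 genes in TPM on a log axis, ordered by mean within each subunit, with 3 knockout libraries as filled circles above 3 wild-type libraries as open squares. The order runs from Mrps25 at 13.1 TPM to Mrps36 at 338 TPM, and for most genes the groups overlap.

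Some Mrps and Mrpl names do not give a protein's place. Mrps30 and Mrps18a lie in the large subunit in structures of the mammalian particle, and the product of Mrps36 is now known as a component of the 2-oxoglutarate dehydrogenase complex. Mrps30 was at 31.4, 29.0 and 31.9 TPM in knockout libraries, against 28.5, 24.6 and 25.2 TPM in wild-type libraries. These groups did not overlap, but the log2 difference of 0.23 (SE 0.14) did not pass (limma adjusted p = 0.354). Mrps18a was at 106, 150 and 132 TPM in knockout libraries, against 141, 149 and 149 TPM in wild-type libraries, with overlapping groups (adjusted p = 0.446). Mrpl51 and Mrpl38 each had a further row of the same name, left out here, at a mean of 7.43 and 2.02 TPM.

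Summed over all members, the transcripts held 0.580%, 0.644% and 0.588% of the knockout libraries, against 0.601%, 0.545% and 0.535% of the wild-type libraries. Small-subunit genes summed to 2328 ± 176 TPM in knockout libraries and 2124 ± 119 TPM in wild-type libraries (SD, n = 3 each). This sum and the shares above include Mrps36, whose product is not a ribosomal subunit. Mrps36 averaged 402 TPM in knockout and 274 TPM in wild-type libraries. Large-subunit genes summed to 3713 ± 172 TPM in knockout libraries and 3481 ± 240 TPM in wild-type libraries (SD, n = 3 each). Wild-type replicate 1, at 3747 TPM for the large subunit, lay above knockout replicates 1 and 3 at 3589 and 3640 TPM, so the groups overlapped. For the small subunit the groups also overlapped, with wild-type replicate 1 at 2260 TPM and knockout replicates 1 and 3 at 2211.5 and 2241 TPM. The ratio of small to large was 0.616, 0.647 and 0.616 in knockout libraries, against 0.603, 0.598 and 0.631 in wild-type libraries, and the knockout mean of 0.626 differed from the wild-type mean of 0.611 by less than the SD of 0.018 within each group. With Mrps30 and Mrps18a counted in the large subunit and Mrps36 left out, the ratio was 0.456 ± 0.0042 in knockout and 0.460 ± 0.0185 in wild-type libraries (SD, n = 3 each).

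**Figure D2:**
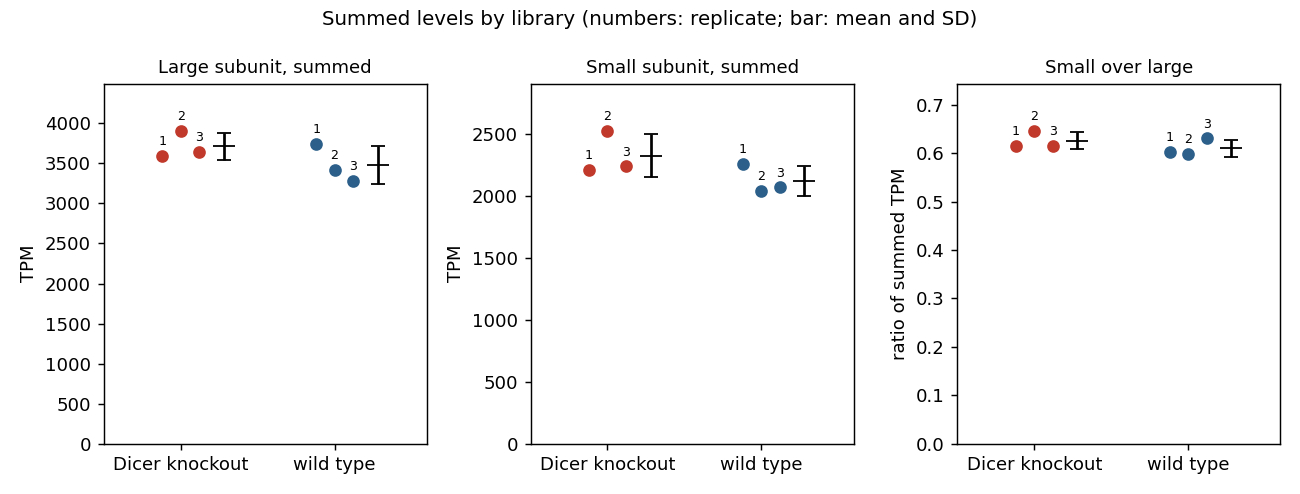
Summed TPM of the large-subunit genes and of the small-subunit genes, and their ratio, in each library, with knockout libraries left of wild-type libraries, replicate numbers above the points, and the mean and SD beside them. The ratio lies between 0.598 and 0.647 in all 6 libraries.

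The genotype comparison found few changes in this gene family. With limma on log2(TPM + 1) over 13787 rows, 2 of the 76 genes rose in knockout libraries, Mrpl33 and Mrpl22, and 0 fell. That is 2.63% higher and 0% lower, against 1.86% of all tested rows called higher (256) and 3.17% called lower (437). With median-of-ratios scaling 375 rows were called higher and 385 lower, and the same 2 members were called. At an unadjusted p below 0.05, 9 members were higher (11.8%, against 9.77% of all tested rows) and 12 were lower (15.8%, against 14.1%). Knockout values lay above all wild-type values for 9 members (11.8%, against 11.8% of all tested rows) and below them for 14 members (18.4%, against 17.1%). The unadjusted and non-overlapping shares were near those of the whole table.

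The differences were small and went both ways. The log2 difference, knockout minus wild type, was positive for 37 members and negative for 39, with a median of -0.01 and quartiles of -0.24 and 0.23. Over all tested rows the median was -0.05 and the quartiles were -0.33 and 0.24. The difference was smaller than 0.5 log2 units for 63 of 76 members. The SE of a single difference had a median of 0.16, and the 95% interval lay within 1 log2 unit on either side of 0 for 70 members and within a 1.5-fold change either way for 33. For those 33 a change of 1.5-fold or more lies outside the interval, and for the other 43 the libraries cannot show whether one occurred.

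**Figure D3:**
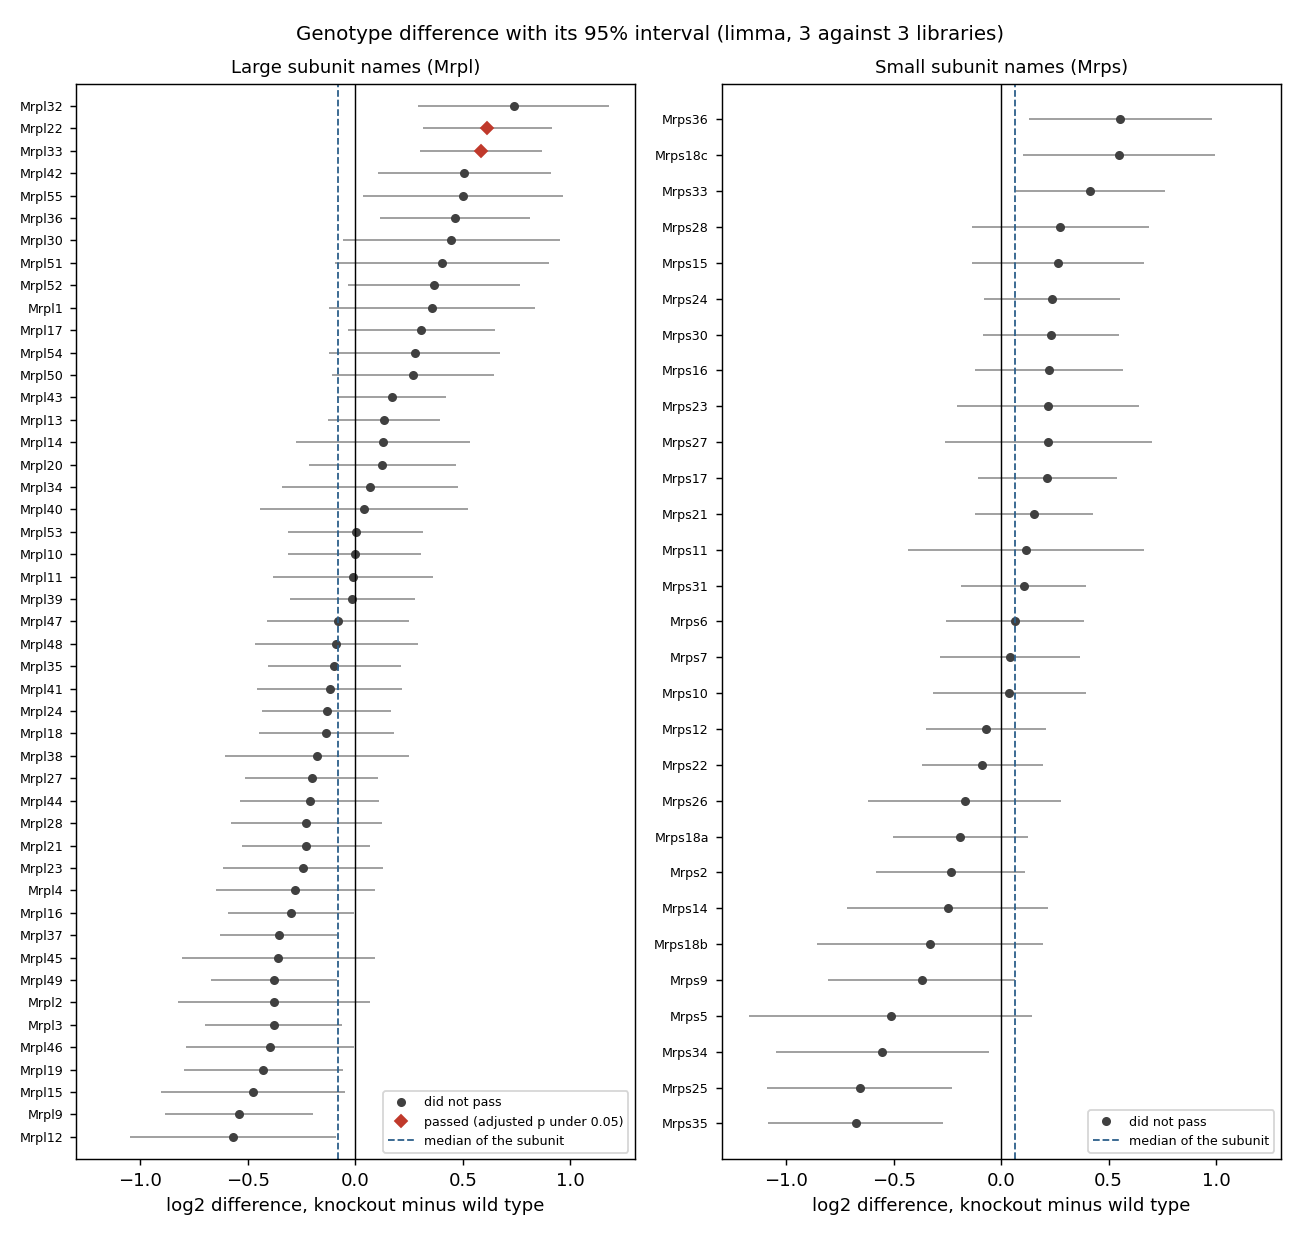
Log2 difference, knockout minus wild type, on the log2(TPM + 1) scale for each gene, with its 95% interval from limma, in order within each subunit. Mrpl22 (0.61) and Mrpl33 (0.59) are the diamonds that passed at an adjusted p under 0.05, and the dashed lines mark the medians of -0.08 for the large and 0.07 for the small subunit.

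Small-subunit and large-subunit genes were spread over much the same range. Of 29 Mrps genes, 0 passed the test, with 17 positive and 12 negative differences and a median of 0.07. Unadjusted, 3 were higher (10.3%) and 3 lower (10.3%). Of 47 Mrpl genes, 2 rose (4.26%) and 0 fell, with 20 positive and 27 negative differences and a median of -0.08. Unadjusted, 6 were higher (12.8%) and 9 lower (19.1%). Over all tested rows 1.86% were called higher and 3.17% lower, and unadjusted 9.77% were higher and 14.1% lower. Differences were positive for 6194 of all tested rows and negative for 7574. For each library the median log2 deviation of a subunit's genes from their means over the 6 libraries was taken. Between replicate libraries the SD of this median was 0.056 for the small and 0.048 for the large subunit. The difference between the subunits was not tested, since genes measured in the same libraries are not replicates. With median-of-ratios scaling the medians were 0.14 and -0.01, and with the trend over transcript length removed they were -0.001 and -0.08, so the sign of the small-subunit median depends on that setting. Proteins listed as having bacterial counterparts had a median of 0.09 in the small subunit (16 genes, 0 called) and -0.10 in the large subunit (29 genes, 2 called higher). Those listed as particular to mitochondria had a median of -0.13 in the small subunit (10 genes, 0 called) and -0.05 in the large subunit (20 genes with Mrps30 and Mrps18a, 0 called). Mrps18a and Mrps18b stood on these latter lists and the like-named Mrps18c on the former, so the lists are not a clean split by origin.

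Mrpl33 encodes a small protein of the large subunit with a bacterial counterpart. It was at 138, 160 and 131 TPM in knockout libraries, against 103, 95.7 and 85.6 TPM in wild-type libraries. The lowest knockout library lay above the highest wild-type library. The means were 143 ± 15.4 TPM in knockout and 94.6 ± 8.50 TPM in wild type (SD, n = 3 each), and the log2 difference was 0.59 with an SE of 0.13 (limma adjusted p = 0.0338). It lies on chromosome 5 (31596935 to 31664384, plus strand, GRCm38), and its exons share bases with a gene model on the same strand, Gm43809, whose reads may not be told from its own.

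Mrpl22, on chromosome 11 (58171661 to 58179565, plus strand, GRCm38), encodes a large-subunit protein whose bacterial counterpart lines the exit tunnel for the growing peptide. It was at 105, 81.1 and 99.5 TPM in knockout libraries, against 64.6, 61.0 and 58.7 TPM in wild-type libraries. The groups were again apart, with the wild-type values close together. The means were 95.1 ± 12.4 TPM in knockout and 61.4 ± 2.96 TPM in wild type (SD, n = 3 each), and the log2 difference was 0.61 with an SE of 0.13 (limma adjusted p = 0.0341).

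Both calls lay close to the threshold. Mrpl33 kept its call without knockout replicate 3 or wild-type replicate 1 (adjusted p of 0.0469 and 0.038) and lost it without any of the other 4 libraries (0.0765 to 0.118). Mrpl22 kept its call without knockout replicate 2 or wild-type replicate 1 (0.0382 and 0.046) and lost it without any of the other 4 (0.0806 to 0.13). Of 19 alternative settings, 9 kept the call of Mrpl33 (adjusted p from 0.0281 to 0.154, log2 difference from 0.37 to 0.66) and 9 kept that of Mrpl22 (adjusted p from 0.0192 to 0.19, log2 difference from 0.49 to 0.72). With the mean level of 12 satellite glia markers as a covariate, Mrpl33 stood at 0.46 (adjusted p = 0.154) and Mrpl22 at 0.67 (adjusted p = 0.0945). Those 12 markers, of cells that wrap sensory neuron bodies, were all detected, with none at 0. They summed to 1830 to 2270 TPM in knockout libraries, against 2130 to 3220 TPM in wild-type libraries. Of the 12, 2 were called lower (Fabp7 and Gja1, 16.7%, against 3.17% of all tested rows) and 0 higher. The difference was negative for 11 of the 12 and positive for 1, with a median of -0.61. Unadjusted, 4 were lower (33.3%, against 14.1% of all tested rows) and 1 was higher (8.33%, against 9.77%). The positive one was Glul, at 212, 222 and 245 TPM in knockout libraries, against 146, 102 and 199 TPM in wild-type libraries (adjusted p = 0.105). S100b, the marker with the highest level and much of the sum, averaged 1266 TPM in knockout and 1273 TPM in wild type. Schwann cell markers summed to 1050 to 1400 TPM in knockout libraries, against 455 to 543 TPM in wild-type libraries. Nearly all of that sum was Pmp22, the 1 marker of 6 called higher, while Mag and Prx were at 0.33 TPM or less in every library and Mbp was lower in each knockout library without passing. Fibroblast, macrophage, endothelial and muscle markers each summed to 46 TPM or less in every library, with C1qa, Cldn5 and Tnnt3 at 0. Of 4 erythroid markers 2 were found by name, and Hbb-b1 was at 0. The other, Hba-a2, was at 39.9, 12.3 and 54.5 TPM in knockout libraries, against 3.6, 8.79 and 19.1 TPM in wild-type libraries, with overlapping groups (log2 difference 1.69, adjusted p = 0.135). The part of Pmp22, Hba-a2 or RNA of Schwann or blood cells in the results here was not tested. In bulk libraries fewer cells of a type and less RNA per cell cannot be told apart.

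Mrpl32, whose product in yeast and mouse is matured by the m-AAA protease of the inner membrane, had the most positive difference of any member without passing the test. It was at 110, 130 and 102 TPM in knockout libraries, against 91.3, 52.4 and 64.7 TPM in wild-type libraries. The groups did not overlap, and the spread of the wild-type libraries was wide (log2 difference 0.74, SE 0.20, adjusted p = 0.0652).

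Many promoters of these genes, but not all, carry motifs of factors that drive nuclear genes for mitochondria. Windows of 300 bases around the transcript start (RefSeq, GRCm38.p6) were found for 67 of 76 members, with no window for Mrpl13, Mrpl15, Mrpl19, Mrpl38, Mrpl4, Mrpl54, Mrps28, Mrps34 and Mrps35. The letters GCGCATGCG, read by nuclear respiratory factor 1, stood on either strand in 7 of 67 members (10.4%), against 1.95% of 27025 genes. The ETS letters CCGGAAG, which GABP can read, stood in 24 (35.8%, against 9.93%), and the YY1 letters AAGATGGC in 12 (17.9%, against 3.19%). At least 1 of the 3 stood in 36 of 67 members (53.7%), against 14.1% of all genes, and 31 members held none. The comparison took every gene with a window, whether or not it was expressed in these libraries, and the part of this in the shares was not tested. By subunit, the ETS letters were in 11 of 26 small-subunit and 13 of 41 large-subunit promoters, and the nuclear respiratory factor 1 letters in 1 of 26 and 6 of 41. Member windows also held more G and C (median 58.3%) than all windows (52.7%), and the part of base composition in these shares was not tested. A match is a run of letters, not a shown binding site.

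The windows of the 2 called genes and of Mrpl32 are printed 5′ to 3′ on the gene's strand because these genes had the most positive differences, and that of Mrpl9, lower at an unadjusted p, is set beside them. Capitals mark the motif letters on either strand, with overlapping matches joined.
Mrpl22 (chr11:58171414-58171713, plus strand): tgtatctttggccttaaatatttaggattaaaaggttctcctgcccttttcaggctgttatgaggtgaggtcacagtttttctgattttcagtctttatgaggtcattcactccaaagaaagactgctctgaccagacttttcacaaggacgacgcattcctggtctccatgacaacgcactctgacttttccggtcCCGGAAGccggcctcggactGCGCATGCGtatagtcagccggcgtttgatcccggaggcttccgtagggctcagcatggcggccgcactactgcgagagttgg
Mrpl33 (chr5:31613701-31614000, plus strand): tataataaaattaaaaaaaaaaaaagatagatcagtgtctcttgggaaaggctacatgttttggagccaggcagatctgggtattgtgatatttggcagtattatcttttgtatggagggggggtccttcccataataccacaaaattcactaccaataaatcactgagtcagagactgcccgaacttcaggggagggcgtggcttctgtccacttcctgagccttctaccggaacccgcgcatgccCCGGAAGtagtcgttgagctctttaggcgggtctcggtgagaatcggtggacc
Mrpl32 (chr13:14612988-14613287, minus strand): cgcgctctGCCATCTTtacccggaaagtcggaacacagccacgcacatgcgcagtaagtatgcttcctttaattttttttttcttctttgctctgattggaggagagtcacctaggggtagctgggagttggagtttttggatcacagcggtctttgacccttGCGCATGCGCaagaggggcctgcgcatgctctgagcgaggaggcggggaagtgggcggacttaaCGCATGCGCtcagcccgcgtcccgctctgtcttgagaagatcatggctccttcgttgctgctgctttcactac
Mrpl9 (chr3:94443086-94443385, plus strand): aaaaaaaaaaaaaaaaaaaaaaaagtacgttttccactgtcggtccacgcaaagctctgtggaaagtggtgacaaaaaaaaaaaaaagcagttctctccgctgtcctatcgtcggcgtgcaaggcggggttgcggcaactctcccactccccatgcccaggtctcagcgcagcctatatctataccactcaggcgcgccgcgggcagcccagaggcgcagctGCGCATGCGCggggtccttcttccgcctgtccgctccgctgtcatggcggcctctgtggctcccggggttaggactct
The window of Mrpl22 held 1 stretch of nuclear respiratory factor 1 letters and 1 of ETS letters, and that of Mrpl33 held 1 of ETS letters. The window of Mrpl32 held 2 nuclear respiratory factor 1 stretches and 1 of YY1 letters. Mrpl9, whose level was lower in each knockout library, held 1 nuclear respiratory factor 1 stretch. Among the 8 most negative members, the windows found for Mrps25, Mrpl12 and Mrps5 held none of the 3 motifs. The nuclear respiratory factor 1 letters also stood in Mrpl17 (log2 difference 0.31), Mrpl10 (-0.003), Mrpl39 (-0.01) and Mrps18b (-0.33). This motif thus stood in genes with differences of either sign, and its part in the differences was not tested.

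The other most positive members did not pass the test. In order of difference they were Mrps36 (log2 difference 0.55, adjusted p = 0.117), Mrps18c (0.55, adjusted p = 0.135), Mrpl42 (0.51, adjusted p = 0.126), Mrpl55 (0.50, adjusted p = 0.183) and Mrpl36 (0.47, adjusted p = 0.11). Mrpl36 was the only one of these 5 with separate groups, at 89.0, 113 and 83.4 TPM in knockout libraries, against 78.8, 62.2 and 64.5 TPM in wild-type libraries, and its exons share bases with Ndufs6 on the opposite strand. Mrps36, the most abundant member, was at 390, 492 and 326 TPM in knockout libraries, against 345, 241 and 236 TPM in wild-type libraries. Mrpl42, the next most abundant, was at 355, 416 and 313 TPM in knockout libraries, against 320, 249 and 200 TPM in wild-type libraries. In both genes wild-type replicate 1 lay within the range of the knockout libraries. Without that library, 6 members were called higher (Mrpl22, Mrpl32, Mrpl33, Mrpl42, Mrps33 and Mrps36), whereas without wild-type replicate 2 or 3 the count was 0.

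No member was called lower. The 8 most negative differences belonged to Mrps35 (-0.68), Mrps25 (-0.66), Mrpl12 (-0.57), Mrps34 (-0.55), Mrpl9 (-0.54), Mrps5 (-0.51), Mrpl15 (-0.48) and Mrpl19 (-0.43), with adjusted p from 0.0652 for Mrps35 to 0.322 for Mrps5. Mrps35, a small-subunit protein particular to mitochondria, was at 12.2, 13.0 and 17.4 TPM in knockout libraries, against 22.9, 23.8 and 22.2 TPM in wild-type libraries. Its groups were apart and the wild-type values lay close together, and without knockout replicate 3, the highest of its group, the difference was -0.82 (adjusted p = 0.049), the only setting with a member called lower. Mrps25, another such protein and the least abundant member, was at 10.6, 8.45 and 10.7 TPM in knockout libraries, against 14.2, 16.4 and 18.0 TPM in wild-type libraries (adjusted p = 0.08). Its exons share bases with Nr2c2 on the opposite strand.

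Mrpl12 forms part of the stalk of the large subunit and in humans also binds the mitochondrial RNA polymerase. It was at 43.9, 71.0 and 77.0 TPM in knockout libraries, against 79.9, 106 and 94.0 TPM in wild-type libraries (adjusted p = 0.146), with knockout replicate 1 far below the rest. Mrps34, a gene of human Leigh syndrome, was at 15.0, 14.4 and 12.4 TPM in knockout libraries, against 15.5, 27.3 and 21.1 TPM in wild-type libraries. Mrpl9, with a bacterial counterpart, was at 32.6, 30.0 and 33.9 TPM in knockout libraries, against 40.4, 47.1 and 55.5 TPM in wild-type libraries. The groups were apart in Mrpl12, Mrps34 and Mrpl9, as in Mrpl15 and Mrpl19, and overlapped in Mrps5.

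**Figure D4:**
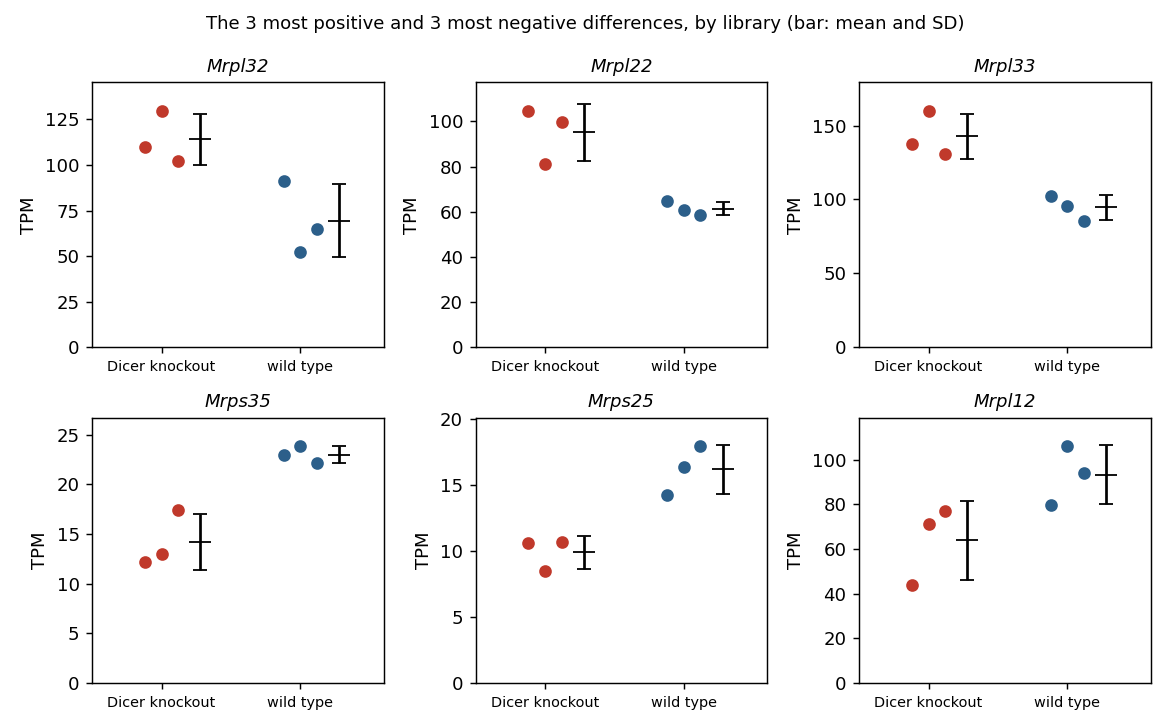
TPM by library for the 3 most positive members (Mrpl32, Mrpl22 and Mrpl33) and the 3 most negative members (Mrps35, Mrps25 and Mrpl12), knockout left of wild type, with the mean and SD beside the points. The groups do not overlap in any of the 6 genes, while Mrpl22 and Mrpl33 alone passed the test across all rows.

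Mrpl46 and Mrps11 lie head to head on chromosome 7, and their promoter windows share 141 bases (chr7:78783040-78783180, GRCm38.p6). This stretch is printed on the plus strand, that of Mrps11, because it belongs to a large-subunit and a small-subunit gene at once.
Mrps11 and Mrpl46: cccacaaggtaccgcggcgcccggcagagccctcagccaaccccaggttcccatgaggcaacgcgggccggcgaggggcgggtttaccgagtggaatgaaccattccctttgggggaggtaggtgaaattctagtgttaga
It held none of the 3 motifs, and the YY1 letters in the Mrps11 window lay outside it. Mrpl46 was at 31.8, 43.5 and 46.8 TPM in knockout libraries, against 48.7, 51.0 and 60.4 TPM in wild-type libraries, with separate groups (log2 difference -0.40, adjusted p = 0.203). Mrps11 was at 22.7, 27.8 and 35.6 TPM in knockout libraries, against 35.3, 25.9 and 19.2 TPM in wild-type libraries, with groups that overlapped (0.11, adjusted p = 0.812).

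Within the family the difference moved with transcript length. Of the 30 members with transcripts up to 1000 bases, 21 had a positive difference and the median was 0.18. Of 28 members over 1000 and up to 2000 bases, 9 were positive (median -0.13), and of 18 longer members, 7 were positive (median -0.09). Across the 76 genes, which share their libraries and are not independent, Spearman's rho between length and difference was -0.39. The same measure over 12740 tested rows with a length was -0.12, and the median of the 1185 rows up to 1000 bases was 0.15. Mrpl33 (478 bases) and Mrpl22 (722 bases) were short, while Mrpl32 (3013 bases) was not. The libraries of 1 group differed in this respect: the correlation of the members' levels, relative to each gene's mean, with length was -0.26, -0.41 and -0.14 in knockout libraries, against 0.00, 0.30 and 0.38 in wild-type libraries. After the length trend of each library was removed, Mrpl33 stood at 0.37 (adjusted p = 0.0949) and Mrpl22 at 0.49 (adjusted p = 0.0727), and 0 members were called, while 796 rows of the whole table were. Lengths are medians over protein-coding GENCODE transcripts and may differ from those the authors used.

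**Figure D5:**
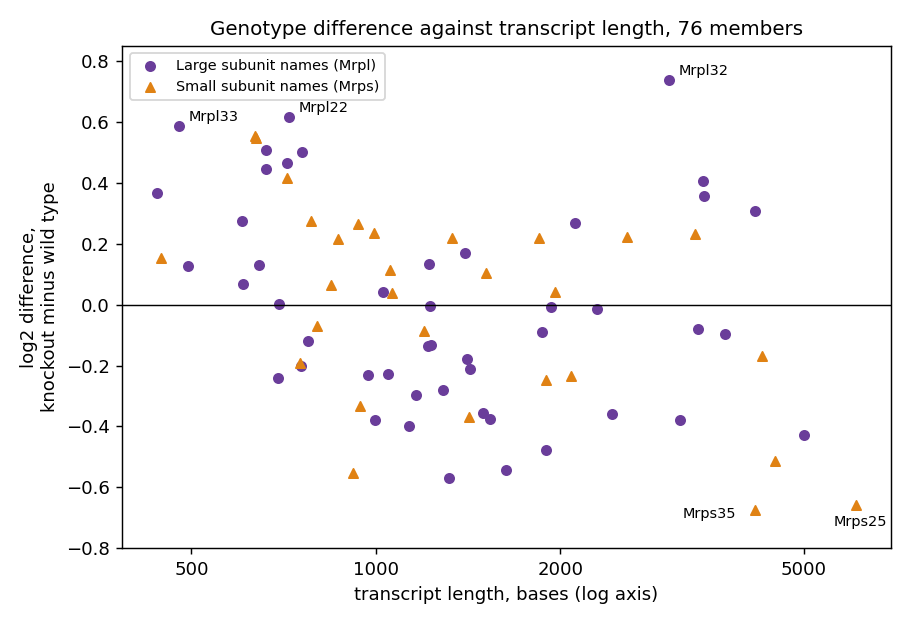
Log2 difference, knockout minus wild type, against transcript length in bases on a log axis for 76 genes, with circles for large-subunit and triangles for small-subunit names. Of the 30 genes up to 1000 bases, 21 lie above 0, and Spearman's rho over all 76 genes is -0.39.

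Genes that work with the mitochondrial ribosome were taken from lists chosen with earlier results of these data known. Of 7 mitoribosomal proteins under other names (Dap3, Gadd45gip1, Ict1, Mrp63, Ptcd3, Chchd1 and Aurkaip1) 0 passed the test. Unadjusted, 0 were higher (against 9.77% of all tested rows) and 1 was lower (14.3%, against 14.1%). The most negative was Gadd45gip1, a large-subunit protein, at 11.5, 9.08 and 17.6 TPM in knockout libraries, against 23.5, 25.7 and 15.1 TPM in wild-type libraries (adjusted p = 0.157). Dap3, a GTP-binding small-subunit protein, was at 18.8, 14.7 and 15.5 TPM in knockout libraries, against 19.5, 21.9 and 22.9 TPM in wild-type libraries (adjusted p = 0.214).

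Among 12 factors of mitochondrial translation 1 fell (8.33%, against 3.17% of all tested rows), 0 rose and 11 did not pass, with a median of -0.36. Unadjusted, 0 were higher and 4 lower (33.3%, against 14.1%), and 5 lay wholly below wild type (41.7%, against 17.1%). The fall was in Tufm, the elongation factor that brings aminoacyl-tRNA to the mitochondrial ribosome. Tufm was at 27.7, 37.9 and 36.4 TPM in knockout libraries, against 47.4, 78.4 and 71.6 TPM in wild-type libraries. Every knockout value lay below every wild-type value (log2 difference -0.91, SE 0.21, limma adjusted p = 0.0418). The call held in 9 of 19 alternative settings (adjusted p from 0.0198 to 0.16), and of the 6 libraries only wild-type replicate 1 could be left out without losing it. Gfm2, which splits the ribosome for recycling, and the release factor genes Mtrf1 and Mtrf1l had differences of -0.75, -0.655 and -0.94 that did not pass (adjusted p of 0.0551, 0.0707 and 0.218).

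Of 21 genes that charge mitochondrial tRNAs, 1 rose (4.76%, against 1.86% of all tested rows), 0 fell and 20 did not pass, with a median of -0.09. Unadjusted, 1 was higher (4.76%, against 9.77%) and 3 lower (14.3%, against 14.1%). Gatc, a subunit of the amidotransferase that makes glutaminyl-tRNA in mitochondria, rose. It was at 109, 106 and 89.1 TPM in knockout libraries, against 73.1, 56.3 and 64.5 TPM in wild-type libraries. The groups were apart (log2 difference 0.64, SE 0.14, limma adjusted p = 0.036), and the call held in 10 of 19 alternatives (adjusted p from 0.0296 to 0.134). It was lost when knockout replicate 1 or 2 or wild-type replicate 2 or 3 was left out (0.0923 to 0.134). Of 26 genes of mitoribosome assembly and ribosomal RNA modification, 0 passed and the median was -0.24. Unadjusted, 1 of these was higher (3.85%, against 9.77%) and 3 lower (11.5%, against 14.1%). The most negative were Mrm1 and Nsun4, both methyltransferases of mitochondrial ribosomal RNA, at -0.92 and -0.81 (adjusted p of 0.0868 and 0.0673). Of 19 genes of mitochondrial DNA expression, 0 passed and the median was -0.11. Unadjusted, 1 of these was higher (5.26%, against 9.77%) and 3 lower (15.8%, against 14.1%). The differences were most negative for Tfam, which packages mitochondrial DNA (-0.63, adjusted p = 0.103), and Lrpprc, which stabilises mitochondrial messages (-0.44, adjusted p = 0.0993).

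Of 9 regulators of mitochondrial genes, Myc alone passed (11.1%, against 1.86% of all tested rows called higher). Unadjusted, 1 was higher (11.1%, against 9.77%) and 1 lower (11.1%, against 14.1%). Myc, a transcription factor of ribosome production and growth, was at 23.7, 28.3 and 17.03 TPM in knockout libraries, against 11.2, 9.14 and 10.8 TPM in wild-type libraries (log2 difference 1.05, SE 0.21, limma adjusted p = 0.0292), with separate groups and a call that held in 11 of 19 alternatives (adjusted p from 0.0223 to 0.112). It was lost when knockout replicate 1 or 2 or wild-type replicate 2 or 3 was left out (0.0727 to 0.112). Nrf1, the factor whose letters were searched above, was at 3.38, 3.5 and 7.75 TPM in knockout libraries, against 5.63, 8.59 and 6.81 TPM in wild-type libraries (adjusted p = 0.381). Names that begin with Rpl or Rps followed by a number, the naming pattern of cytosolic ribosomal protein genes, are set beside these. The match did not fix the end of the name, so it can also take in genes of other proteins. Of 92 tested names 1 was called higher (1.09%, against 1.86% of all tested rows) and 0 lower. Unadjusted, 24 were higher (26.1%, against 9.77%) and 3 lower (3.26%, against 14.1%). Their median difference was 0.15, and that of the mitochondrial family was -0.01. Over all tested rows with transcripts up to 1000 bases the median was also 0.15, and over mitochondrial members of that length it was 0.18. Transcript length was not matched between these sets. The difference between them and the part of length in it were not tested.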

How the data were processed

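RNA sequencing covered 6 libraries, 3 from Dicer knockout and 3 from wild-type mice. The authors deposited 1 table of TPM values, 1 column per library with replicates not pooled. Per the submitters' processing notes, the tools were cutadapt, Bowtie2 and RSEM 1.2.7 with the build mm10; the annotation and strand setting are not given in the sources used here. RSEM divides reads between similar transcripts by a model, and each library is scaled to 1000000, so values are shares and depth is unknown.

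The 13787 rows that averaged 1 TPM or more entered limma 3.58.1 (R 4.3.3), fitted to log2(TPM + 1) with genotype as the sole term and a trended prior variance. Tests were two-sided, with Benjamini-Hochberg adjustment over all rows and a threshold of 0.05. This scale understates fold changes at low levels. With 3 libraries a group, exact permutation cannot go below p = 0.1 and was not used. The fit was run on independent normal values drawn with known changes, to check that it estimated those changes. Such values hold no effects shared across a library, so the check does not bear on the calls made here. The gene family and the gene lists were chosen for study with earlier results of these data known; within the family, the name alone set membership. Listed names not found in the table were left out. Named were all called members, the 8 largest differences each way, the 5 highest and lowest levels per subunit, members with several rows, Mrps30, Mrps18a and Mrps36, and in each gene list the called genes or else the 2 largest differences; Mrpl46, Mrps11, Nrf1 and the second-ranked genes beside Tufm were named after their values were seen. Gene positions, lengths and exon overlaps came from GENCODE vM21 (GRCm38, the assembly of mm10), which gave a length for 92.4% of tested rows; 25 of 76 members share exonic bases with another annotated gene. Motifs were searched with Python 3.11.15.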

Additional observations from a re-analysis of the deposited data

How the results depend on the processing

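Over all tested rows, 693 were called, and 378 with no filter on low values, 225 without an intensity trend and 192 with the satellite glia covariate. Under these 3 settings, with a replicate block and with the length trend removed (added after seeing the data), 0 members were called higher, in place of 2. Leaving out libraries, 1 at a time or replicate 3 of both groups, gave 164 to 835 called rows (204 without both), 0 to 6 members higher and 0 to 1 lower. The small-subunit median then ranged from 0.032 to 0.132. The large-subunit median ranged from -0.09 to -0.032 without 1 library and was -0.1 without both. With median-of-ratios scaling the small-subunit median was 0.14 and the large-subunit median -0.005, with quantile normalization the large-subunit median was -0.018, and with the length trend removed the small-subunit median was -0.001. The cause of these shifts was not tested. With the replicate block 529 rows were called, and the adjusted p was 0.0527 for Mrpl33, 0.0551 for Mrpl22 and 0.0532 for Gatc. The replicate numbers are not shown to pair libraries: deviations of same-numbered libraries correlated at 0.05, 0.07 and 0.04, knockout replicates 2 and 3 correlated best with their own number, and knockout replicate 1 with wild-type replicate 3 (0.07). With 3 libraries a group and unknown depth, a change of 1.5-fold lay outside the 95% interval for 33 of 76 members only.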

Other observations

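Wild-type replicate 1 was often the wild-type library at the end toward the knockout mean. The same counts over all tested rows were not made, and these same libraries set the sign of each difference. The pattern is therefore not shown to be particular to this family. Among the 37 members with a positive difference it was the highest wild-type library in 27, and among the 39 with a negative difference it was the lowest in 24. Knockout replicate 2 was the highest knockout library in 20 of the 37. The part of these libraries in the length pattern was not tested.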
